A study of Mus musculus with 27 samples.

Results

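The genes examined here handle haem and iron in mouse skeletal muscle. They are the 10 rows of the gene table whose symbol is Hmox1, Fth1, Ftl1, Slc40a1, Tfrc, Slc11a1, Slc11a2, Cp, Mt1 or Mt2, out of 54532 rows in all, and all 10 passed the filter on low values that left 14630 genes to test. The samples were whole tibialis anterior muscles of male C57BL/6 mice, 8 weeks old at the time of surgery. Volumetric muscle loss (VML) was made by cutting away 40% of the muscle, and muscles were taken 3 days (n = 5), 7 days (n = 6), 14 days (n = 6) and 21 days (n = 5) later, beside a no injury control group (n = 5). The study's methods describe surgery on both legs and the series record describes it on a single leg. No genotype, transgene or drug differed between the groups. The labels do not say which libraries came from separate animals, so every p-value below measures the spread between these libraries.

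Haem released from haemoglobin and myoglobin is cleaved by haem oxygenase 1 (Hmox1) into biliverdin, carbon monoxide and iron. The iron is stored in ferritin, a shell of heavy (Fth1) and light (Ftl1) chains, or leaves the cell through ferroportin (Slc40a1), the known cellular iron exporter, with the help of the copper oxidase ceruloplasmin (Cp). Cells take up transferrin-bound iron through the transferrin receptor (Tfrc), and the proton-coupled transporters Slc11a1 (of phagosomes) and Slc11a2 (DMT1, of endosomes) move the metal across membranes. The metallothioneins Mt1 and Mt2 bind zinc and copper and are induced by metals, glucocorticoids and oxidative stress. Macrophages that clear red cells and dying fibres are known as the main site of haem recycling in injured muscle.

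Several of these mRNAs carry an iron-responsive element (IRE), a hairpin bound by the iron regulatory proteins when iron is scarce. Bound in a 5′ UTR it blocks translation, and bound in a 3′ UTR it protects the mRNA from decay, so protein can change with no change of mRNA for the first kind. The elements are shown because they place the members that hold a match in these classes. The sense strand of the protein-coding GENCODE M21 transcripts (GRCm38) was searched for a bulged C, 5 bases of stem, the loop letters CAGTGN and 5 more bases of stem. The stem bases on either side had to pair (G-T pairs allowed) and the last loop base was A, C or T. In the lines that follow each 27-base window is written 5′ to 3′ on the mRNA strand, with the 6 loop bases in capitals. Of the 5 base pairs below the bulged C, 4 formed in the windows of Fth1 and Ftl1 and 5 in each of the others.
Fth1, 5′ UTR, chr19:9982733-9982759, plus strand: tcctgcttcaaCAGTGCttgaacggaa
Ftl1, 5′ UTR, chr7:45459780-45459806, minus strand: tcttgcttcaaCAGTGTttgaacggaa
Slc40a1, 5′ UTR, chr1:45925466-45925492, minus strand: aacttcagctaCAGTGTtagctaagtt
Tfrc, 3′ UTR, chr16:32631220-32631246, plus strand: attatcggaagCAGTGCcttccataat
Tfrc, 3′ UTR, chr16:32631599-32631625, plus strand: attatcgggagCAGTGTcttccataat
Tfrc, 3′ UTR, chr16:32631664-32631690, plus strand: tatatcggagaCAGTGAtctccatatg
Tfrc, 3′ UTR, chr16:32631711-32631737, plus strand: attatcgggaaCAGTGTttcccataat
These letters were found in 222 of 21901 protein-coding genes (1.01%), and in 24 genes (0.110%) with at least 4 of the 5 lower pairs. They were not found in the protein-coding transcripts of the other 6 members. The search asked for all 5 stem pairs above the bulged C and a fixed loop, so elements of another form are missed. A gene without a match is therefore not shown to lack an IRE, and a gene with matches may hold more. A match is a description of sequence, and gene-level values do not tell apart transcripts that hold the element from those that lack it.

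Levels are given as FPKM (read pairs scaled by transcript length and sequencing depth, here with the deposited denominators), so they can be compared between samples. A comparison between genes is limited by the gene length used and by exon bases shared with other genes. Each library held 14376395 to 24436763 assigned reads. A difference is the change in mean log2(FPKM + 1), which understates changes of genes near 0, and a gene is called higher or lower when the adjusted p (limma, Benjamini-Hochberg over the 14630 genes tested) was under 0.05. Some libraries stood apart from their labels. Day 3 replicate 5 lay nearer to the day 7 mean than to that of its own group (root mean square log2 distance 0.390 against 0.515), and day 7 replicate 5 lay nearer to day 3 (0.359 against 0.679). The member differences from no injury at these times are therefore given with and without the pair. Of the others, 7 (2 of day 7, 3 of day 14 and 2 of day 21) were also nearer to a different group.

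The scale of the values matters for small differences. The deposited denominators were on average 0.782 times the library's own total of reads without injury and 1.25, 1.18, 1.04 and 0.897 times on days 3, 7, 14 and 21. Rescaling every sample to a common sum (TPM) moved the median difference of all genes to 0.50, 0.47, 0.28 and 0.11 at the 4 times, and to -0.41 between days 21 and 3. With the own total as denominator these medians were 0.40, 0.36, 0.24, 0.11 and -0.30. On day 3, 3417 genes were called higher and 2899 lower as deposited, against 7087 and 322 in TPM.

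On day 3, 4 of the 10 genes were higher than without injury (Hmox1, Ftl1, Slc11a1 and Mt1) and 2 were lower (Tfrc and Slc40a1), while 43.2% of all genes tested were called, 23.4% higher and 19.8% lower. On day 7, Hmox1, Ftl1 and Slc11a1 were higher and Slc40a1 lower, beside 29.4% of all genes (15% higher, 14.4% lower). On days 14 and 21 Slc40a1 alone was called, lower both times. Of all genes 20.3% were called on day 14 (9.02% higher, 11.3% lower) and 3.43% on day 21 (1.74% higher, 1.69% lower). Between days 3 and 21, Tfrc was called higher and 5 members lower (Hmox1, Ftl1, Slc11a1, Mt1 and Slc40a1), beside 25.5% of all genes (9.23% higher, 16.2% lower). The median difference of the 10 genes was 0.30, 0.11, 0.15 and 0.11 at the 4 times, against 0.01, 0.03, 0.02 and 0.01 over all genes tested. All comparisons against no injury share the same 5 control libraries. The injured and control libraries did not overlap for 6 members on day 3, 3 on day 7, 2 on day 14 and 3 on day 21, against 36.3%, 12.6%, 15.7% and 10.4% of all genes tested. The 6 of day 3 were Hmox1, Ftl1, Tfrc, Slc11a1, Mt1 and Mt2. Mt2 had 0 reads in every control, so 1 read per injured library was enough, and it passed the filter only through injured libraries. Between neighbouring times the groups overlapped for every member, as they did for all but 0.342%, 0.519% and 0.704% of genes (days 3 to 7, 7 to 14 and 14 to 21), and 2 of 30 such steps had an unadjusted exact permutation p under 0.05.

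**Figure D1:**
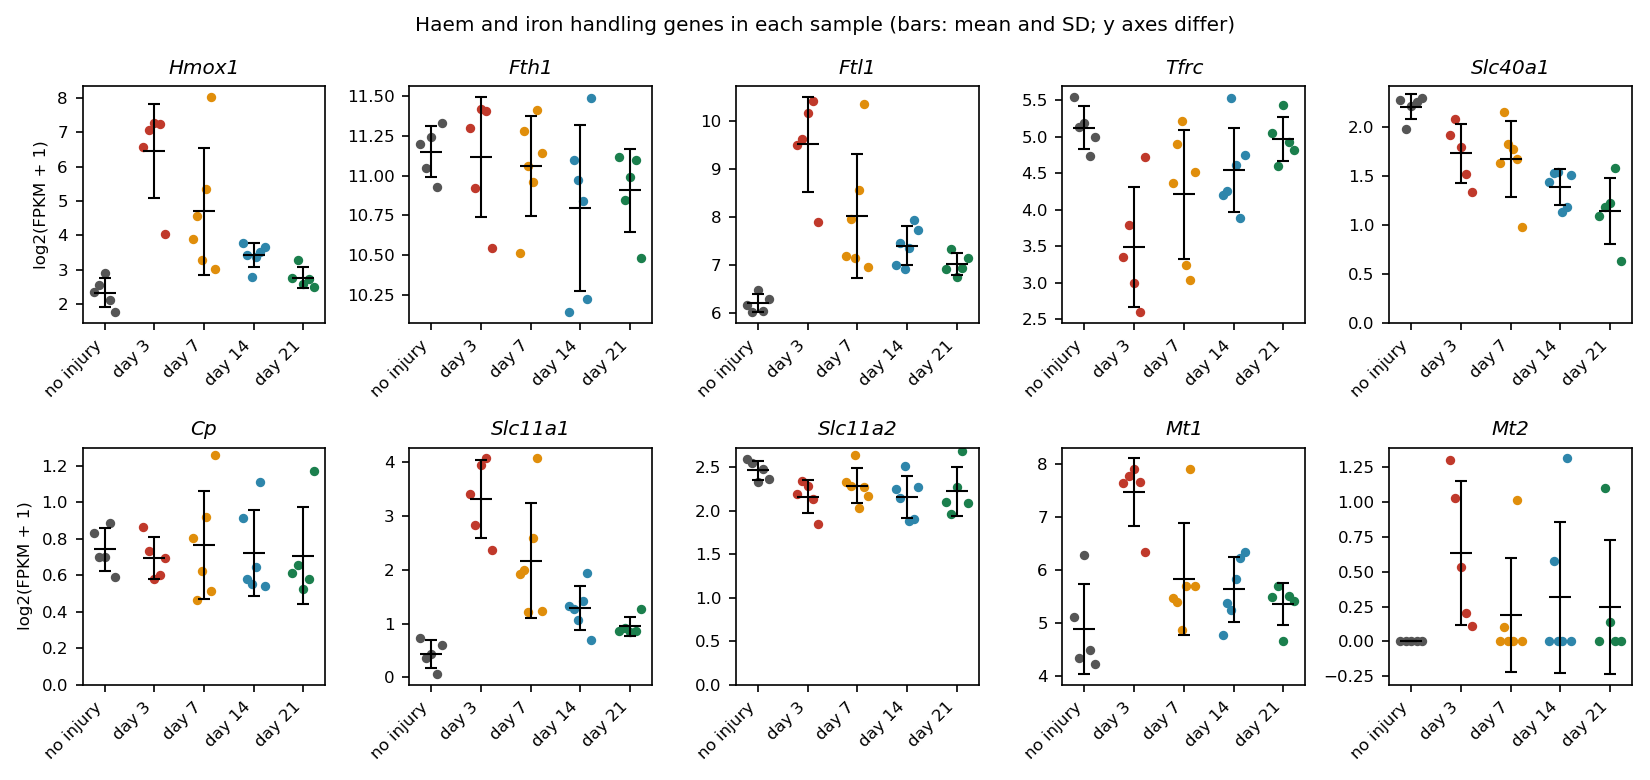
FPKM of the 10 genes (log2(FPKM + 1) on the vertical axis) in each of the 27 libraries by group, with points for libraries and bars for the group mean and SD. Hmox1, Ftl1, Slc11a1 and Mt1 have their highest group means on day 3, where replicate 5 sits below the other day 3 libraries, and for these 4 genes day 7 replicate 5 sits above the rest of its group.

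Hmox1, which cleaves haem (ENSMUSG00000005413, chr8:75093621-75100589, plus strand), had the largest difference of the 10 genes on day 3 on the log2(FPKM + 1) scale. That scale understates changes of genes near 0, such as Slc11a1. As a ratio of mean FPKM to no injury, the day 3 rise was 27.04-fold for Slc11a1 and 25.92-fold for Hmox1. The FPKM of Hmox1 without injury was 4.07, 4.91, 6.47, 3.34 and 2.38, and on day 3 it was 95.0, 133, 154, 151 and 15.5 (replicates 1 to 5). The lowest day 3 library was replicate 5, and even that library was above every control. On day 7 the range was from 7.10 to 261 FPKM with a median of 18.4, on day 14 from 5.88 to 12.8 FPKM with a median of 10.1, and on day 21 the values were 5.82, 8.71, 4.97, 5.66 and 4.66. The high day 7 value belongs to replicate 5, and by day 14 the lowest library was within the control range.

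The Hmox1 means were 4.24 ± 1.56 (SD, n = 5) FPKM without injury and 109.8 ± 57.7 (SD, n = 5) on day 3. The difference was 4.11 (SE 0.64), or 17.2-fold on the log2(FPKM + 1) scale, with an adjusted p of 2.24e-05 (limma). On day 7 it was 2.36 (limma adjusted p = 0.00603), and without the pair of replicates 5 it was 4.71 on day 3 and 1.69 on day 7, called both times. On day 14 the difference of 1.09 was not called (limma adjusted p = 0.211) but was without the pair (adjusted p = 0.0119) and in a fit of those 2 groups alone (adjusted p = 0.00366). The exact permutation p was 0.00649 there, unadjusted among 70 such tests of single members. On day 21 the difference was 0.44 (limma adjusted p = 0.745). From day 3 to day 21 Hmox1 fell by 3.67 (limma adjusted p = 0.000224).

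Ftl1, the ferritin light chain (ENSMUSG00000050708, chr7:45457944-45459884, minus strand), moved in the same direction as Hmox1 on days 3 and 7. Its FPKM was 71.6, 64.0, 88.5, 65.2 and 78.0 without injury and 719, 784, 1147, 1366 and 236 on day 3. The lowest day 3 library, replicate 5, was still above the highest control. Its day 7 values ranged from 124 to 1299 FPKM with a median of 196, on day 14 from 119.9 to 245 FPKM with a median of 169.6, and on day 21 it was 120.2, 161, 106, 123 and 141. Every injured library at every time was above every control library.

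The Ftl1 means were 73.5 ± 10.1 (SD, n = 5) FPKM without injury and 850.5 ± 434 (SD, n = 5) on day 3. The differences were 3.31 (SE 0.46, 9.91-fold, limma adjusted p = 6.57e-06) on day 3 and 1.82 (limma adjusted p = 0.00397) on day 7. Without the pair of replicates 5 they were 3.71 and 1.35, both called. The later differences of 1.20 and 0.81 were not called (limma adjusted p = 0.0565 and 0.332). Fitted to the 2 groups alone, which uses only their own spread, both were called (adjusted p = 0.00133 and 0.00521), and the day 14 difference was also called without the pair (adjusted p = 0.00185). The exact permutation p of Ftl1 was 0.00794, 0.00866, 0.00216 and 0.00794 at the 4 times, of which 0.00794 and 0.00216 are the smallest the groups allow. Between days 3 and 21 Ftl1 fell by 2.49 (limma adjusted p = 0.000376). Of the exon bases of Ftl1, 34.6% (464 of 1340) are shared with other annotated genes, of which Gm10252 was at 0.547 FPKM or less. That low value does not tell where reads in the shared bases were counted. The part of the overlap in the level of Ftl1 was not tested. The pseudogene Ftl1-ps1, with which reads could be exchanged, had a median of 1.62 FPKM without injury and 15.6 on day 3.

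Fth1, the ferritin heavy chain with the ferroxidase site (ENSMUSG00000024661, chr19:9982703-9985092, plus strand), had the highest FPKM of the members in every group. The level of its FPKM depends on the deposited gene length of 866 bases. In GENCODE M21, where its coordinates differ, its exons cover 3469 bases. Its FPKM was 2354, 2115, 2424, 1950.2 and 2573 without injury and 2521, 1938, 2739.8, 2715 and 1493 on day 3. The groups overlapped throughout. On day 7 it ranged from 1456 to 2732 FPKM with a median of 2197, on day 14 from 1125 to 2876 FPKM with a median of 1922, and on day 21 it was 2221, 1842, 2037, 2189 and 1429. Its differences were -0.03 (95% confidence interval -0.54 to 0.47), -0.09, -0.36 and -0.24, none of them called (limma adjusted p = 0.931, 0.808, 0.287 and 0.621). The signs depend on the scale, those of days 3, 7 and 14 turning in TPM and on own totals and all 4 after quantile normalization. The day 3 difference was 0.79 in TPM (limma adjusted p = 0.0187), where the median gene stood at 0.50, 0.63 on own totals (adjusted p = 0.0307), and 1.34 after quantile normalization (adjusted p = 0.00294). On day 7 Fth1 was called in TPM (0.64, adjusted p = 0.0492) and after quantile normalization (0.95, adjusted p = 0.0358). Without the pair the differences on days 3 and 7 were 0.11 and -0.16, not called.

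A ratio of the ferritin chains within a sample is free of any scaling factor of that library. The FPKM of Ftl1 divided by that of Fth1 lay between 0.0303 and 0.0365 without injury (median 0.0304). It was 0.158 to 0.503 on day 3 (median 0.405), 0.0547 to 0.475 on day 7 (median 0.0996), 0.0598 to 0.205 on day 14 (median 0.0845) and 0.0522 to 0.0989 on day 21 (median 0.0561). All injured libraries were above all control libraries, at every time. The log2 ratio was higher by 3.34 (10.1-fold), 1.91, 1.55 and 1.06 (2.08-fold), with two-sided exact permutation p of 0.00794, 0.00649, 0.00216 and 0.00794. The p-values were not adjusted for the 16 tests of 4 ratios. The ratios were formed with earlier results known, so their p-values are no independent test of the member differences. Without the pair of replicates 5 the day 3 and day 7 values were 3.60 and 1.51.

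**Figure D2:**
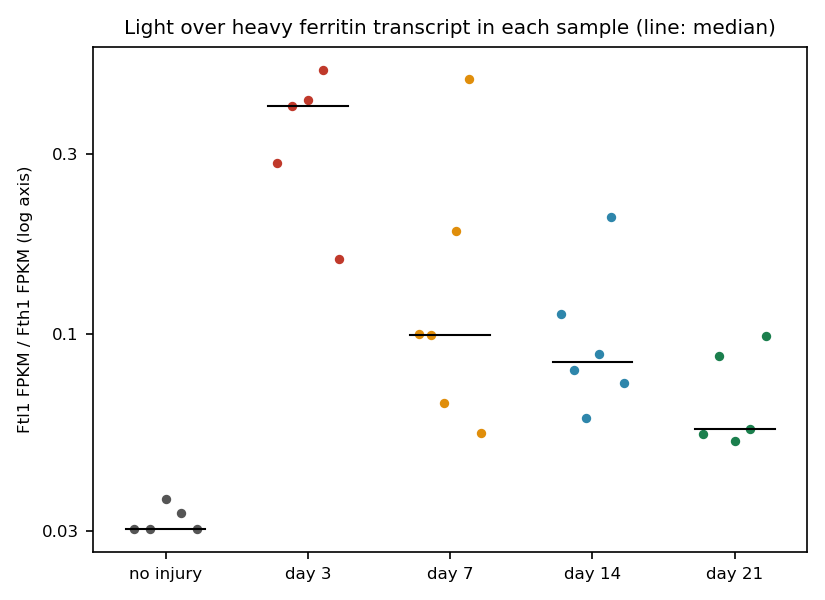
Ratio of Ftl1 to Fth1 FPKM in each of the 27 libraries by group, on a log axis, with group medians as bars. The 5 control libraries sit between 0.0303 and 0.0365, and all 22 injured libraries sit above them.

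Tfrc, the receptor for transferrin-bound iron (ENSMUSG00000022797, chr16:32608920-32632794, plus strand), was lower on day 3. Its FPKM was 45.9, 34.2, 35.6, 25.7 and 31.0 without injury and 9.24, 12.8, 6.97, 5.04 and 25.4 on day 3, so that the groups did not overlap, although day 3 replicate 5 came just under the lowest control. The 6 libraries of day 7 ranged from 7.21 to 36.1 FPKM with a median of 20.7, on day 14 from 13.8 to 45.3 FPKM with a median of 20.9, and on day 21 it was 32.1, 23.4, 42.1, 29.6 and 27.3. The means were 34.5 ± 7.41 (SD, n = 5) FPKM without injury and 11.9 ± 8.08 (SD, n = 5) on day 3. Tfrc fell by 1.63 on day 3 (SE 0.38, 3.10-fold lower, limma adjusted p = 0.00116), and by 1.94 without the pair. The size depends on the scale. On day 3 it was -0.86 in TPM (limma adjusted p = 0.0348) and -1.01 on own totals (adjusted p = 0.0122). Relative to the median of all genes on those scales it was -1.36 and -1.41. The differences of -0.91, -0.58 and -0.16 at the later times were not called (limma adjusted p = 0.0587, 0.258 and 0.857). On day 7 the difference was -0.68 without the pair (adjusted p = 0.114), and it was called without day 3 replicate 5, day 7 replicate 2 or 3 or day 14 replicate 3 (adjusted p between 0.0187 and 0.0496). Day 21 was higher than day 3 by 1.48 (limma adjusted p = 0.00571). Among the members with an IRE in the 5′ UTR, Ftl1 was higher on day 3, Slc40a1 was lower as deposited (0.14 in TPM), and Fth1 was not called. Relative to Fth1 in the same sample, Tfrc differed by -1.60 on day 3 (exact permutation p = 0.0397) and by -2.05 without the pair, and leaving out no injury replicate 1, 2 or 3 took that p past 0.05, at differences between -1.61 and -1.51. Muscle fibre markers fell at the same time. On day 3, 7 of 8 were called lower, beside 19.8% of all genes, and 3 of 8 in TPM, beside 322 of 15116 genes. The summed level of these markers was 64717 to 79829 FPKM without injury and 18985 to 44674 on day 3. Their part in the Tfrc difference was not tested. In bulk muscle, fewer cells of a type and less RNA per cell cannot be told apart.

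**Figure D3:**
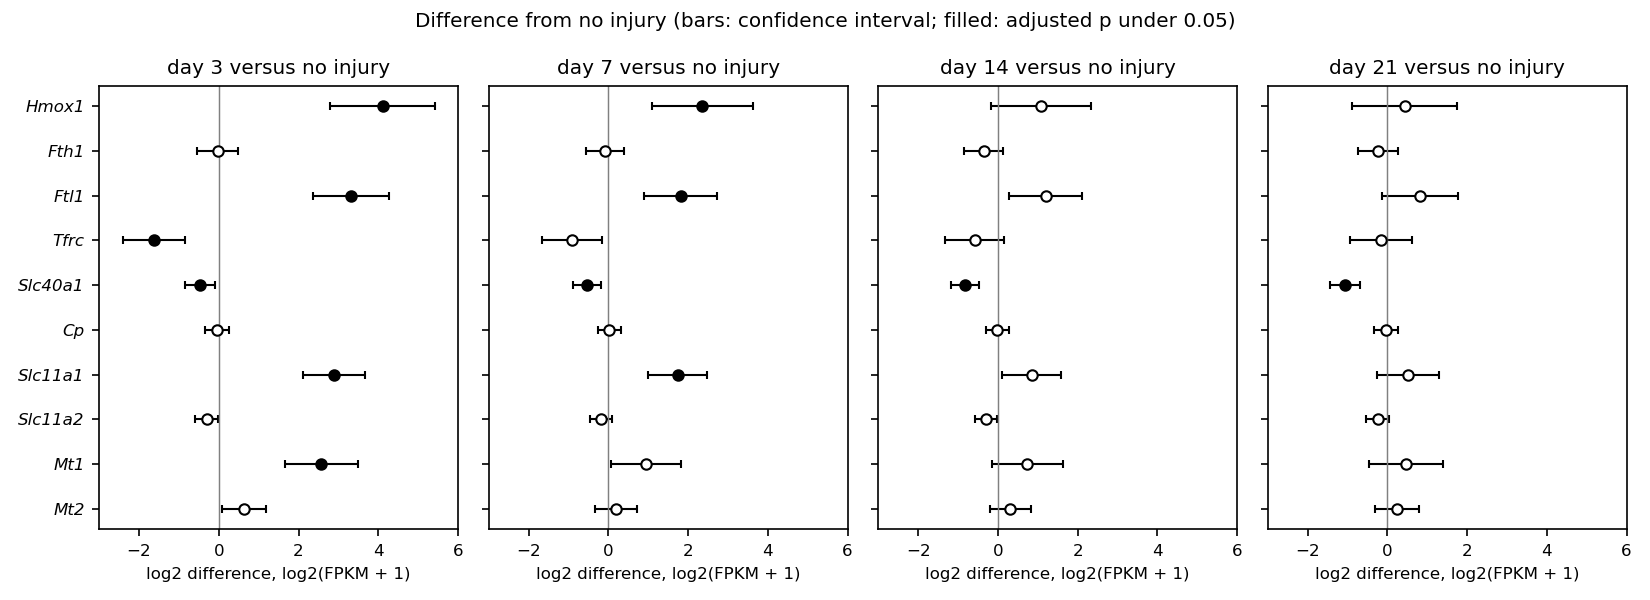
Difference in mean log2(FPKM + 1) of the 10 genes from the no injury group on days 3, 7, 14 and 21, with 95% confidence intervals from limma and filled points for called differences. Hmox1 starts at 4.11 and ends at 0.44, while Slc40a1 goes from -0.47 (0.14 in TPM) to -1.06.

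Slc40a1, the iron exporter ferroportin (ENSMUSG00000025993, chr1:45908068-45926523, minus strand), was the only member called at all 4 times, always lower, as were 202 genes (1.38%) of all tested. Its FPKM was 3.84, 2.96, 3.66, 3.79 and 3.91 without injury, 2.79, 3.23, 2.48, 1.87 and 1.53 on day 3 and 1.13, 1.28, 1.35, 1.99 and 0.557 on day 21. Day 3 overlapped the controls and day 21 did not. On day 7 it ranged from 0.972 to 3.46 FPKM with a median of 2.30 and on day 14 from 1.19 to 1.90 FPKM with a median of 1.79, the latter below every control. Unlike the other members called on day 3, its mean was further from the controls on day 21 than on day 3.

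The Slc40a1 differences were -0.47 (SE 0.18, limma adjusted p = 0.0338), -0.53 (adjusted p = 0.0209), -0.82 (adjusted p = 0.00232) and -1.06 (adjusted p = 0.00304). From day 3 to day 21 Slc40a1 fell by 0.59 (limma adjusted p = 0.0174), a call lost without day 3 replicate 2 or day 21 replicate 5 and after quantile normalization (-0.47, adjusted p = 0.0667). The first 2 calls rested on single libraries and settings. Without the pair of replicates 5 the day 3 difference was -0.38 (limma adjusted p = 0.110), and leaving out no injury replicate 1, 3, 4 or 5 or day 3 replicate 4 or 5 also lost it, as did a pseudocount of 0.1 and no filter on low values. Without the pair the day 7 difference was -0.53, still called (adjusted p = 0.0304). The day 7 call was lost without day 7 replicate 6 (adjusted p = 0.0502) and in a fit of the 2 groups alone (adjusted p = 0.0512). In TPM the differences were 0.14 and 0.04 on days 3 and 7, the opposite sign, and -0.46 and -0.84 on days 14 and 21, none of them called (limma adjusted p = 0.662, 0.901, 0.188 and 0.165). Relative to the median of all genes in TPM they were -0.36, -0.43, -0.74 and -0.96. On own totals the differences were 0.02, -0.11, -0.51 and -0.86, of which the last was called (limma adjusted p = 0.948, 0.685, 0.0744 and 0.0433). Between 56 and 700 reads stood behind each value.

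Ceruloplasmin (Cp, ENSMUSG00000003617, chr3:19957054-20009145, plus strand), the oxidase that loads exported iron onto transferrin and is made mainly in liver, was near the filter in all groups. It ranged from 0.507 to 0.849 FPKM without injury and from 0.382 to 1.39 FPKM after injury. All 4 differences lay between -0.05 and 0.02 and none was called (limma adjusted p between 0.824 and 0.937). The 95% confidence interval on day 3 ran from -0.35 to 0.25. Without the pair the differences on days 3 and 7 were -0.05 and 0.07.

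Slc11a1, the metal transporter of phagocyte vacuoles (ENSMUSG00000026177, chr1:74375195-74386062, plus strand), was at 0.669, 0.282, 0.345, 0.0438 and 0.516 FPKM without injury and at 9.70, 6.09, 14.4, 15.9 and 4.17 on day 3. All day 3 libraries were above all controls, and replicate 5 was again the lowest of them. Its day 7 values ranged from 1.31 to 15.9 FPKM with a median of 2.88, on day 14 from 0.618 to 2.82 FPKM with a median of 1.47, and on day 21 it was 0.816, 0.892, 0.789, 0.826 and 1.40, where the groups did not overlap, although they did on day 14. The differences were 2.89 (SE 0.38, limma adjusted p = 3.10e-06) on day 3 and 1.74 (adjusted p = 0.00132) on day 7, and 3.13 and 1.35 without the pair, both called. On days 14 and 21 they were 0.85 and 0.51, not called (limma adjusted p = 0.0968 and 0.473). In fits of the 2 groups alone both were called (adjusted p = 0.00796 and 0.0392), and day 14 was also called without the pair (adjusted p = 0.0133) and with a pseudocount of 0.1 or 0.5. Between days 3 and 21 Slc11a1 fell by 2.38 (limma adjusted p = 0.000107).

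Its relative Slc11a2 (ENSMUSG00000023030, chr15:100387898-100425072, minus strand), which releases transferrin iron from endosomes in many cell types, was between 4.05 and 5.03 FPKM without injury. It was 2.62 to 4.06 FPKM on day 3, 3.09 to 5.27 on day 7, 2.69 to 4.70 on day 14 and 2.90 to 5.45 on day 21. The groups overlapped at all times, on day 3 by a single pair of values. The differences of -0.31, -0.18, -0.30 and -0.24 were not called (limma adjusted p = 0.0819, 0.338, 0.107 and 0.341). Day 3 was called after quantile normalization (-0.43, limma adjusted p = 0.0215) and in a fit of the 2 groups alone (adjusted p = 0.0381). In TPM the first 3 had the opposite sign (0.36, 0.42 and 0.08), not called, and relative to the median of all genes in TPM they were -0.14, -0.05 and -0.20. Without the pair the differences on days 3 and 7 were -0.23 and -0.17, not called. The ratio of Slc11a1 to Slc11a2 within a sample was higher by 3.19, 1.91, 1.15 and 0.76 on the log2(FPKM + 1) scale, with exact permutation p of 0.00794, 0.00433, 0.00649 and 0.0159, and by 3.36 and 1.53 on days 3 and 7 without the pair. The difference between these relatives on day 3 is thus larger than the spread between libraries.

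Mt1, the broadly expressed metallothionein (ENSMUSG00000031765, chr8:94179082-94180327, plus strand), was at 33.6, 19.2, 76.8, 21.6 and 17.6 FPKM without injury and at 199, 218, 239, 199.9 and 79.4 on day 3. The groups did not overlap, but control replicate 3 came close to day 3 replicate 5. On day 7 it ranged from 28.1 to 237 FPKM with a median of 46.8, on day 14 from 26.4 to 79.5 FPKM with a median of 48.2, and on day 21 it was 43.9, 51.1, 24.3, 44.4 and 41.3. Mt1 was higher by 2.57 on day 3 (SE 0.45, limma adjusted p = 7.37e-05), and by 2.85 without the pair. On days 7, 14 and 21 the differences were 0.95, 0.74 and 0.46, not called (limma adjusted p = 0.0960, 0.223 and 0.605). The day 7 value varied with libraries and scale. It was 0.53 without the pair (adjusted p = 0.241), and it was called without no injury replicate 3 (1.29, adjusted p = 0.0273) or day 7 replicate 3 (1.14, adjusted p = 0.0439). It was also called in TPM (1.65, adjusted p = 0.00777), on own totals (1.48, adjusted p = 0.0138) and after quantile normalization (1.20, adjusted p = 0.0457). Mt1 on day 7 was below day 3 by 1.63 (unadjusted exact permutation p = 0.0216), with groups that overlapped through day 7 replicate 5. Between days 3 and 21 it fell by 2.11 (limma adjusted p = 0.00123).

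Mt2 (ENSMUSG00000031762, chr8:94172664-94173568, plus strand), the neighbour of Mt1 in the metallothionein cluster, was at 0 in all 5 control libraries and at 1.47, 1.04, 0.451, 0.149 and 0.0799 FPKM on day 3. The day 3 values rest on 1 to 18 reads. On day 7 it was above 0 in 2 of 6 libraries, on day 14 in 2 of 6 and on day 21 in 2 of 5, with 21 reads at most. The day 3 difference of 0.64 was not called (limma adjusted p = 0.0558), depends on the pseudocount, and is no bound on a fold. It was called with a pseudocount of 0.1 or 0.5, in TPM and without the pair (0.77, limma adjusted p = 0.0164). The gene passed the filter only because 5 of 27 libraries reached 0.5 FPKM. Of its 588 exon bases, 432 (73.5%) are shared with exons of the antisense gene Gm45774, the libraries were not strand-specific, and Gm45774 itself was at 0.498 FPKM or less. The part of this overlap in the low level of Mt2 was not tested.

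Hmox1, Ftl1 and Slc11a1 were high in libraries with high macrophage markers, and Mt1 was so on day 3, though its highest control library, replicate 3, had the lowest control marker sum. All 10 macrophage and monocyte markers were called higher on day 3 and 9 on day 7, 2 on day 14 and 0 on day 21. Of all genes 23.4%, 15%, 9.02% and 1.74% were called higher at these times. Their summed level was 17.8 to 26.6 FPKM without injury and 329 to 2180 on day 3, 49.9 to 2055 on day 7, 46.3 to 108 on day 14 and 32.7 to 59.8 on day 21. Day 3 replicate 5 was the lowest of its group and day 7 replicate 5 the highest of its group in this sum too. A comparison added after these values were seen took each member's log2(FPKM + 1) minus the mean of the 10 markers in the same sample. On day 3 this was 0.92 higher than without injury for Hmox1 (exact permutation p = 0.0873), 0.12 higher for Ftl1 (exact p = 0.587), 0.30 lower (-0.30) for Slc11a1 (exact p = 0.0635) and -0.62 for Mt1 (exact p = 0.183). None of these passed 0.05, with 0.00794 the smallest p possible. At the later times none passed 0.05 either. The lowest were for Ftl1 on day 21 (0.36, exact p = 0.0556) and Mt1 on day 7 (-0.91, exact p = 0.0714). The markers are low without injury, where log2(FPKM + 1) can understate their rise, which limits this comparison. Of the other marker lists, 4 of 6 fibro-adipogenic and 4 of 5 satellite cell genes were called higher and 1 of 5 endothelial genes lower on day 3. Of all genes 23.4% were called higher and 19.8% lower then, so the endothelial count is near the share of all genes. Neutrophil markers were called higher in 3 of 3 tested on day 3 and in 2 on day 7, when 15% of all genes were. None of the 5 erythroid markers tested was called against no injury at any time, and their summed level was 298 to 443 FPKM without injury, 191 to 390 on day 3, 56.2 to 1120 on day 7, 102 to 568 on day 14 and 211 to 274 on day 21, the last below every control. From day 3 to day 21, 4 of the 5 were called lower in TPM, beside 5001 of all 15116 genes. The part of these cells in the member differences was not tested.

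**Figure D4:**
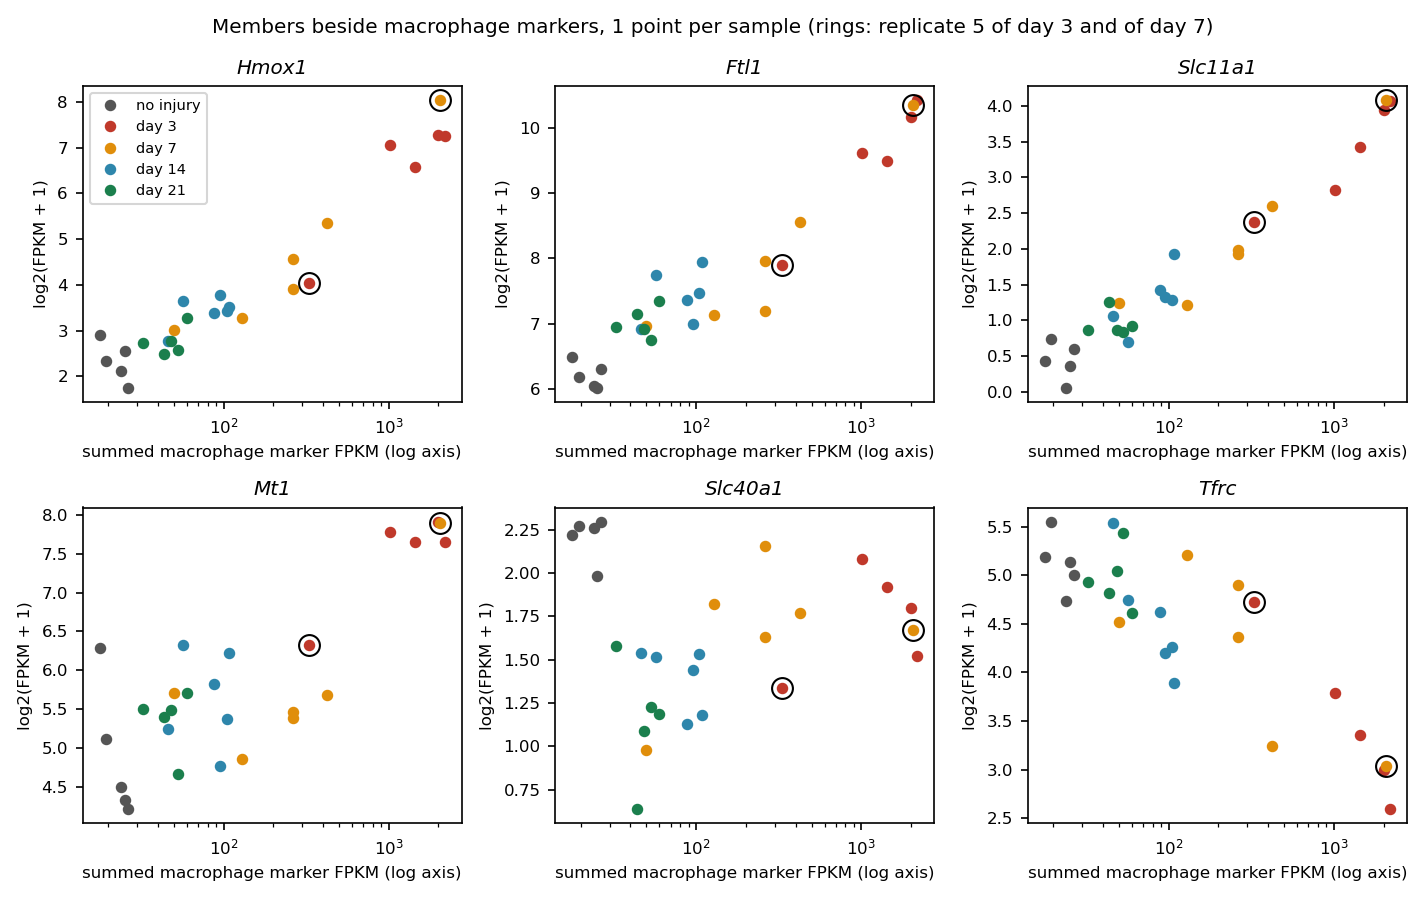
Levels of Hmox1, Ftl1, Slc11a1, Mt1, Slc40a1 and Tfrc (vertical, log2(FPKM + 1)) against the summed FPKM of 10 macrophage markers (horizontal, log axis) in 27 libraries coloured by group, with rings around replicate 5 of days 3 and 7. Hmox1, Ftl1 and Slc11a1 are high in the libraries with high marker sums, including day 7 replicate 5, Tfrc is low in them, and the relation is a description of libraries that differ in group.

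The other genes of the pathway were read from lists. The median difference on day 3 was 0.34 for haem breakdown, -0.37 for haem synthesis, 0.23 for iron uptake, -0.33 for iron storage and 0.33 for zinc and copper, against 0.01 for all genes tested. Of 13 tested genes for haem breakdown and haem transport, 6 were higher on day 3 and 5 on day 7, with none lower, where 23.4% and 15% of all genes were called higher. In TPM 11 and 9 were higher, beside 7087 and 6457 of all 15116 genes tested on that scale. On own totals 11 and 8 were higher, beside 6679 and 5436 of 14858 genes. After quantile normalization 5 were higher and 1 lower on day 3. The genes called higher as deposited include Lrp1, a receptor for the haem-haemopexin complex (1.79 on day 3, limma adjusted p = 7.54e-06), and Blvrb, a biliverdin reductase (1.69, adjusted p = 3.21e-05). Hp, the plasma haemoglobin binder haptoglobin, had its largest difference on day 7 (3.19, limma adjusted p = 0.000930), when it ranged from 2.30 to 51.1 FPKM against 0.455 to 3.13 without injury. With Hp, the others called higher on day 3 were Nfe2l2, a transcription factor of the oxidative stress response, Cd163, the macrophage scavenger receptor for haemoglobin, and the haem carrier Slc46a1. On day 14 a single gene was called in each direction and on day 21 none. The constitutive haem oxygenase Hmox2 was not called against no injury at any time.

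Of 10 haem synthesis genes tested, 5 were lower on day 3, 3 on day 7, 2 on day 14 and 0 on day 21, with none higher, where 19.8%, 14.4%, 11.3% and 1.69% of all genes were called lower. Alas1, the rate-limiting enzyme outside red cells, was at 20.1 to 39.2 FPKM without injury and 7.51 to 19.4 on day 3 (-1.10, limma adjusted p = 0.000511). Fech, which inserts the iron, differed by -0.67 (limma adjusted p = 0.0136), and Alad by -0.71 on day 7 (adjusted p = 0.0119). These directions depend on the scale, since in TPM none was called lower on days 3, 7 and 14 and 1, 2 and 1 were called higher. Of all 15116 genes tested in TPM, 322, 208 and 106 were called lower at these times and 7087, 6457 and 1646 higher.

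Of 12 tested genes for iron storage, release and regulation, 6 were lower on day 3, 6 on day 7, 5 on day 14 and 0 on day 21, and Pcbp1, an iron chaperone, was higher on day 3, against the same shares of all genes. Hfe2 (hemojuvelin, a BMP co-receptor abundant in muscle) went from 293 to 445 FPKM without injury to 119 to 188 on day 3 (-1.18, limma adjusted p = 0.000336). Bmp6, a ligand of the same receptor complex, differed by -1.25 (limma adjusted p = 0.000583) and Iscu, the iron-sulphur cluster scaffold, by -1.11 (adjusted p = 0.000161). Here too TPM turned the count, to 4 higher and 1 lower on day 3, 4 and 0 on day 7 and 0 and 0 on day 14. The calls of all genes turned too, to 7087 higher and 322 lower on day 3 and 6457 and 208 on day 7. Muscle fibre markers were lower in 7 of 8 on day 3, as given above. Ireb2, which binds IREs, and Ncoa4, the receptor for ferritin autophagy, were not called against no injury at any time.

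Of 10 tested genes for iron uptake, reduction and mitochondrial import, 4 were higher and 1 lower on day 3, 3 and 1 on day 7, 1 and 1 on day 14 and none on day 21, beside 23.4% of all genes higher and 19.8% lower on day 3. In TPM 8 were higher and 0 lower on day 3 and 7 and 0 on day 7. Of all 15116 genes, 7087 and 322, then 6457 and 208, were so called in TPM. After quantile normalization the list had 2 higher and 1 lower on day 3, then 0 and 1 on day 7. Steap1 (1.56, limma adjusted p = 0.000546), transferrin itself (Trf, 1.02, adjusted p = 0.000169) and the siderophore binder Lcn2 (0.83, adjusted p = 0.0149) were higher on day 3, and the mitochondrial iron carrier Slc25a28 was lower. Steap1 was at or below 0.0619 FPKM in every control library, so it passed the filter on low values only through injured libraries. Its call, counted among the 4 higher on day 3, is therefore not independent of that filter. Of 9 tested zinc and copper genes 2 were higher on day 3, Mt3 (3.67, limma adjusted p = 9.44e-07) and the zinc importer Slc39a1 (0.51, adjusted p = 0.0173), a share near that of all genes. In TPM 8 of the 9 were higher on day 3 and 7 on day 7, on own totals 8 and 5. All genes shifted to higher calls on both scales, on own totals to 6679 and 5436 of 14858. Mt3, the metallothionein best known from brain, was at 23.7 to 43.4 FPKM on day 3 and 0.152 to 7.68 without injury. Without the pair of replicates 5 the calls on day 3 were 6 of 13 for haem breakdown, 4 of 10 for haem synthesis, 5 of 10 for uptake, 7 of 12 for storage and 3 of 9 for zinc and copper. These counts pool both directions, beside 6330 of all 14630 genes tested.

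**Figure D5:**
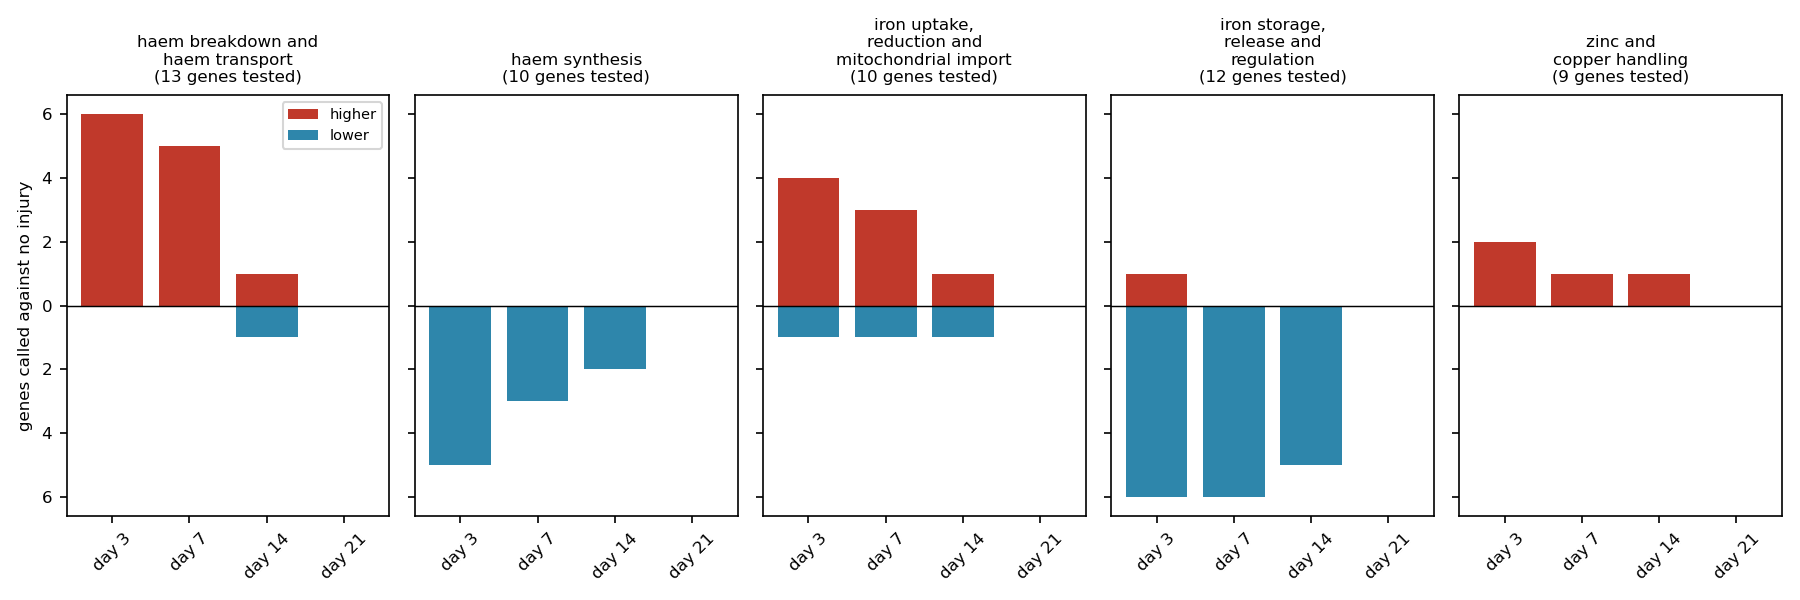
Number of genes called higher (upward bars) and lower (downward bars) in each of the 5 pathway lists on days 3, 7, 14 and 21 against no injury, from limma on the deposited scale. Haem breakdown has only higher calls on days 3 and 7 and haem synthesis only lower calls. In TPM most calls of all genes were higher on days 3 and 7. The calls of haem synthesis, and most of those of iron storage, were higher too in TPM. The other 3 lists had more higher calls there on days 3 and 7. No list has a call on day 21 as deposited.

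The genes whose log2(FPKM + 1) was most correlated with each member over the 27 libraries differ between the members. Pearson's r is given as a description, since the libraries share groups and the 2 libraries far from their labels. For Hmox1 the nearest were Laptm5 and Trem2 (r = 0.978 and 0.976), for Ftl1 Ucp2 and Capg (0.981 and 0.978), and for Slc11a1 Grn and Fermt3 (0.988 and 0.986). For Mt1 they were Rhog and Sh3bgrl3 (0.933 and 0.927), and for Tfrc Hrc and Fhl3 (0.908 and 0.893). For Slc40a1 the nearest genes were Cacul1 and Stk40 (0.818 and 0.808), for Fth1 Snx3 and Nudc (0.868 and 0.859), and for Slc11a2 Prkar2a and Adipor1 (0.835 and 0.831). Cp and Mt2, both near 0, had their best matches at 0.770 (Phf21a) and 0.763 (Mir142b).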

How the data were processed

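RNA was sequenced from 27 whole tibialis anterior muscles with poly-A, non-directional libraries. The authors aligned reads with HISAT2 2.0.5, counted them with featureCounts 1.5.0-p3 and deposited gene-level FPKM values, whose per-sample denominators follow the median-ratio method rather than the library total. The genome build is not given in the sources used here. Of the table's genes, 54409 were found in GENCODE M21 (GRCm38), 98.3% with the same coordinates. Whole reads could be recovered from 100% of the FPKM values (tolerance 0.01 reads), which gave the depths.

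The 14630 genes that reached an FPKM of 0.5 in 5 or more samples were fitted as log2(FPKM + 1) in limma 3.58.1 (R 4.3.3), with 1 mean per group and all 27 samples, a trend of variance with mean, and Benjamini-Hochberg adjustment. Members and ratios were also compared by exact two-sided permutation. Python 3.11.15, pandas 2.3.3, numpy 2.4.6 and matplotlib 3.10.9 were used. The limma step was tested on simulated data. Named pathway genes were the up to 3 per list with the largest called difference, and the remaining names were chosen after their values were seen. The members, lists and comparisons were chosen with earlier results of these data known. Replicate numbers did not pair the samples, so no block entered the fit. Alternatives were other pseudocounts, filters, scalings, fits and left-out libraries.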

Additional observations from a re-analysis of the deposited data

Results flagged for a closer look

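In 13 of the 50 combinations of member and group, the highest or lowest library stood far from the others by Dixon's test on FPKM without logs. The nominal rate of the test would give about 2.5. That figure assumes normally distributed values and independent combinations. The same libraries recur across members, and Mt2 could not be flagged in the no injury group, where no library had reads. The 2.5 is therefore no measure of what chance would give here. Of the 13 flagged combinations, 6 belong to the pair of libraries that stood apart from their labels. Day 7 replicate 5 was the high library for Hmox1 (261 FPKM), Ftl1 (1299 FPKM), Slc11a1 (15.9 FPKM), Mt1 (237 FPKM) and Mt2 (1.03 FPKM), and day 3 replicate 5 was the low library for Mt1 (79.4 FPKM). In the no injury group, replicate 2 was low for Slc40a1 (2.96 FPKM) and replicate 3 high for Mt1 (76.8 FPKM). Day 14 replicate 5 was high for Mt2 (1.49 FPKM). At day 21, replicate 2 was high for Hmox1 (8.71 FPKM) and Mt2 (1.15 FPKM), and replicate 5 was high for Cp (1.25 FPKM) and Slc11a1 (1.40 FPKM).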

How the results depend on the processing

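Of the recomputed values of members, 1919 of 2045 kept their direction and their side of the threshold, and 58 changed sign. With the sign kept, 50 gained a call and 18 lost one, all 18 for Slc40a1. Some values that changed sign also crossed the threshold and are counted only among the 58. In TPM on days 3 and 7, Fth1 so gained a call and Slc40a1 so lost one. Many of the 2045 could hardly change, so the share that held is no measure of robustness. Median-ratio scaling repeats the deposited scale. Leaving out a library of a group outside the comparison keeps the difference and alters only the estimate of spread. The calls of Hmox1, Ftl1 and Slc11a1 on days 3 and 7 and of Mt1 and Tfrc on day 3 held under every alternative run. All 5 differences of Cp lay within 0.05 of 0 in the reported fit.

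Rescaling turned the sign of several small differences, and the cause was not tested. In TPM, Fth1 was 0.79, 0.64 and 0.12 on days 3, 7 and 14, Slc11a2 0.36, 0.42 and 0.08 (0.0814), Slc40a1 0.14 and 0.04 (0.0374) on days 3 and 7, Cp 0.28, 0.18 and 0.02 (0.0244) on days 3, 14 and 21, and Tfrc 0.03 (0.0340) on day 21. Relative to the median of all genes in TPM, these were 0.30, 0.17 and -0.16 for Fth1 and -0.14, -0.05 and -0.20 for Slc11a2. They were -0.36 and -0.43 for Slc40a1, -0.22, -0.10 and -0.09 for Cp, and -0.08 for Tfrc. From day 3 to day 21 in TPM, Slc11a2 was -0.43 and Cp -0.25, or -0.03 and 0.16 relative to the median. On own totals, a choice added after seeing the data, Fth1 was 0.63, 0.46 and 0.05 (0.0461), Slc11a2 0.23, 0.27 and 0.02 (0.0169), Slc40a1 0.02 (0.0192) on day 3, Cp 0.21, 0.15 and 0.03 (0.0306), and Tfrc 0.03 (0.0332) on day 21, with Slc11a2 at -0.31 and Cp at -0.18 from day 3 to day 21. After quantile normalization Fth1 was 1.34, 0.95, 0.27 and 0.12 and Cp on day 7 -0.14. With voom weights Cp was -0.10 (-0.0958) on day 7 and -0.06 (-0.0562) from day 3 to day 21, where a pseudocount of 0.1 gave -0.00458. Without the replicates 5 of days 3 and 7, also chosen after seeing the data, Fth1 was 0.11 on day 3 and Slc11a2 -0.01 (-0.0143) from day 3 to day 21.

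Counts of called genes in TPM were 6665 on day 7, 1752 on day 14 and 45 on day 21. Calls split into 2189 higher and 2107 lower on day 7 as deposited and 6457 and 208 in TPM, 1320 and 1649 against 1646 and 106 on day 14, 255 and 247 against 40 and 5 on day 21, and 1351 and 2377 against 166 and 5001 from day 3 to day 21. On own totals these were 6679 and 616 on day 3, 5436 and 424, 2251 and 284, 103 and 25, and 309 and 4594. Quantile normalization gave 2774 and 3734 on day 3 and 2108 and 2105 from day 3 to day 21. On day 21, 502 genes were called, against 247 with no filter, 294 after quantile normalization, 282 with voom weights, 1477 in a fit of the 2 groups alone and 128 on own totals. Members called on day 14 were 1, against 2 with a pseudocount of 0.1 or 0.5 or voom weights and 4 in the 2 groups alone or without both replicates 5. On day 21 they were 1, against 0 in TPM and 3 in the 2 groups alone.

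Within-sample ratios of Tfrc to Fth1 were -1.71, -0.64 and -0.15 on days 7, 14 and 21 after quantile normalization. Mt2 to Mt1, which Mt2 near 0 leaves to Mt1, was -1.94 on day 3 (exact permutation p = 0.0159), but -0.19, 0.33 and 0.45 on days 3, 14 and 21 with a pseudocount of 0.1, and -1.39 and -0.88 on days 7 and 14 in TPM.

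Samples with the same replicate number did not deviate together (correlations from -0.52 to 0.57, median -0.003 over 51 pairs), nor did those with the same letter (median 0.02 over 49 pairs). With the number as replicate block 795 genes were called on day 21 and 2 members on day 14, Cp was -0.00801 on day 7, and Mt2 on day 3, Tfrc on day 7 and Slc11a1 on day 14 passed the threshold. With the letter as replicate block 1233 genes were called on day 21, Slc11a2 was -0.000689 from day 3 to day 21, and Mt2 on day 3 and Tfrc on day 7 passed. No other call of a member against no injury changed under either block.

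Leaving out 1 library at a time gave 5289 to 6517 called genes on day 3, 3251 to 5220 on day 7, 1895 (without day 14 replicate 5) to 3358 on day 14, 190 (without day 21 replicate 2) to 707 on day 21 and 2316 (without day 3 replicate 4) to 4076 from day 3 to day 21. Members called were 5 to 7, 3 to 6, 1 to 3, 1 to 1 and 5 to 6. Fth1 ranged from -0.11 to 0.11 on day 3 and from -0.16 to 0.0222 on day 7, Cp from -0.0758 to 0.0826 on day 7, from -0.10 to 0.0175 on day 14, from -0.15 to 0.0124 on day 21 and from -0.10 to 0.0594 from day 3 to day 21, and Slc11a2 from -0.0538 to 0.13 in that comparison. Tfrc to Fth1 ranged from -2.05 to -1.31 on day 3, from -1.02 to -0.52 on day 7 and from -0.00646 to 0.18 on day 21, and Mt2 to Mt1 from -1.11 to -0.51 on day 7. Low counts limit Mt2, with at most 21 reads in a library.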
